A study of Homo sapiens with 179 samples.

Results

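The libraries described here are the 95 LM-Seq libraries of Lane 1, of 179 libraries in the series, divided by the 5-digit number in their titles. The low numbers run from Lane1_38782 to Lane1_38828 (n = 46) and the high numbers from Lane1_38829 to Lane1_38877 (n = 49). A number in the low range, at place 4 of run 3 as counted below, was not analysed here. Every library came from the 1 cell line H1, human embryonic stem cells, grown on Matrigel in E8, a defined medium for pluripotent cells. The labels give no genotype, treatment or time that separates the numbers. Cells were lysed on the plate and RNA was purified on columns. LM-Seq selects polyadenylated RNA with oligo-dT, fragments it and primes reverse transcription with random hexamers. All 95 libraries shared a sequencing lane, so lane and multiplexing do not differ between the groups. What the number stands for is not given in the labels, and neither is any separate culture behind each library. The p-values therefore rest on variation among libraries that may be purely technical.

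H1 cells are pluripotent: they renew themselves under the control of the transcription factors POU5F1 (OCT4), NANOG and SOX2 and can form all embryonic lineages. Their rapid growth draws on abundant ribosomal, translation and RNA-processing transcripts. The bases of an RNA are purines (A and G) or pyrimidines (C and U), and transcripts differ in their share of purines.

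The defining markers were present in every library. Over the 95 libraries POU5F1 ranged from 1890 to 2835 TPM (transcript abundance per unit length, scaled to the same total in every library) with a median of 2105, NANOG from 82.9 to 200 TPM and SOX2 from 116.8 to 200.8 TPM. LIN28A, DNMT3B and L1TD1 had medians of 1857, 1776 and 2864 TPM. The high-minus-low log2 difference was 0.02 ± 0.02 (SE) for POU5F1 (95% interval -0.02 to 0.06), 0.00 ± 0.03 for NANOG (-0.07 to 0.07) and 0.04 ± 0.03 for SOX2 (-0.02 to 0.10). Of 14 neuroectoderm, 16 mesoderm and endoderm, 12 fibroblast or stroma and 12 trophoblast and epithelium markers, 7, 12, 4 and 6 averaged under 1 TPM. Other members were abundant. The highest of each list were NES (mean 214 TPM), KDR (86.6), THY1 (251) and CLDN6 (944). The summed levels of these lists overlapped between groups, for example 342 to 437.8 TPM in low and 352 to 494 TPM in high numbers for neuroectoderm. For trophoblast and epithelium they were 2510 to 2960 TPM in low and 2300 to 3097 TPM in high numbers. In bulk RNA, fewer cells of a type and less RNA per cell cannot be told apart.

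The groups differed in depth. Totals were 1198230 to 1539268 expected counts in low numbers (median 1308460) and 1040667 to 1419596 in high numbers (median 1252761). The mean was 7.32% lower in high numbers, although the ranges overlapped (permutation test, two-sided, 100000 resamples, p = 0.00002, the smallest these resamples can give, adjusted p = 0.00006 over 3 such tests). High-number libraries also had fewer genes with at least 1 count, 13228 ± 111.1 (SD, n = 49) against 13294 ± 108.6 (n = 46; adjusted p = 0.0066, same permutation test). With every library thinned to 1040667 counts the means were 13066 and 13058, a difference of 9 genes in the other direction (p = 0.56, permutation test). Ribosomal protein genes took 11.8% ± 0.365 of TPM in high and 11.8% ± 0.324 in low numbers (adjusted p = 0.68, permutation test).

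The first question was whether libraries of high number differed in expression from those of low number. No gene did at an adjusted p below 0.05: 0 of 9514 tested genes (0%) were called by edgeR's quasi-likelihood test, with 560 at an unadjusted p below 0.05 (5.89%), and DESeq2 and limma also called 0. The lowest adjusted p was 0.233. The 5 lowest p belonged to COX6C, SNN, IGFBPL1, MAZ and TRIP10, none of them called. COX6C, a subunit of cytochrome c oxidase, ranged from 176 to 307 TPM in low numbers (median 224) and from 186 to 323 in high numbers (median 258), a log2 difference of 0.17 ± 0.04 (SE). SNN, which encodes stannin, had medians of 63 TPM in low and 54.8 TPM in high numbers, at -0.15 ± 0.04. In both genes the groups overlapped over most of their range.

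The precision of this comparison bounds what it could miss. The median SE of the log2 difference was 0.051, and the 95% interval lay inside a 1.2-fold change for 8461 genes (88.9%). Among the 3349 genes with an average log2 CPM (counts scaled to library size) of at least 6, it did so for 3347 (99.9%), and no such gene differed by more than 0.19. A straight trend along all numbers also called 0 of 9514 genes (0%) with edgeR. At an unadjusted p below 0.05 there were 686, and DESeq2 called 10. RPS4X, PCMT1, C16orf80, RPL23 and TMEM101 had the lowest p. RPS4X, an X-linked protein of the small ribosomal subunit, had a slope of 0.17 ± 0.04 log2 over the whole span (edgeR adjusted p = 0.14). It was called by DESeq2 (adjusted p = 0.016) and by edgeR with the total (0.0092) or the purine contrast described below (0.022) as a covariate, and its adjusted p was 0.071 to 0.18 under the other alternatives.

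A step at the split beyond a straight trend was called in 1 of 9514 genes (0.0105%). SRP9, a protein of the signal recognition particle, stepped up by 0.19 ± 0.04 log2 (edgeR adjusted p = 0.013) while its high-minus-low difference was 0.02 ± 0.02 (medians of 1164 TPM in low and 1176 TPM in high numbers). It fell within low numbers by 0.16 ± 0.04 and within high numbers by 0.18 ± 0.05 log2 per 48 numbers.

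Within each group, taken alone, expression did follow the number. Within low numbers 303 of 8710 genes (3.48%) had a slope, with 1.18% of tested genes rising and 2.3% falling. The slopes, given here as log2 change per 48 numbers, had a median size of 0.30 among called genes and reached 1.03. Within high numbers 52 of 8596 genes (0.605%) were called, 28 rising (0.326%) and 24 falling (0.279%).

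Genes of RNA processing and translation were among those that fell as the low numbers increased. Of 41 tested splicing factors 13 were called, or 31.7%, and 12 of these fell. Their list had a median slope of -0.12, against 0.01 over all genes. HNRNPH1, an RNA-binding protein that guides exon choice, fell by 0.26 ± 0.05 (adjusted p = 0.00046). SRSF5, a serine- and arginine-rich splicing factor, fell by 0.26 ± 0.06 (adjusted p = 0.0072), and PTBP1, a repressor of exon inclusion, was the 1 that rose, by 0.22 (adjusted p = 0.030). Of 60 translation factors 7 were called (11.7%), 6 of them falling. EIF3B and EIF3A, subunits of the initiation factor that prepares the small ribosomal subunit, fell by 0.44 ± 0.06 and 0.38 ± 0.09, and EIF5B, which joins the ribosomal subunits, by 0.28 ± 0.07. The median over translation factors was -0.02.

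Ribosomal protein genes moved in both directions within low numbers. Of 81 tested, 12 were called (14.8%), 9 rising and 3 falling, with a list median of -0.01. RPLP1 of the ribosomal stalk rose by 0.29 ± 0.05, RPL12 by 0.34 ± 0.06 and RPS4X by 0.30 ± 0.05 (each adjusted p = 0.00046). RPL5, which carries 5S rRNA, fell by 0.23 ± 0.04 (adjusted p = 0.0014). RNA of ribosomal protein genes and of NPM1 and HMGB2 can be shared with near-identical processed copies, so their estimates depend on how RSEM divided reads.

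Of the other lists, 11 had 1 to 4 calls within low numbers, to be read against 3.48% of all genes. That share includes scarce genes, which are measured less precisely. No list, here or above, was set against genes of like abundance. The share was 1.2% for zinc finger genes (3 of 249), 4.41% for mitochondrial ribosomal proteins (3 of 68) and 5.88% for the respiratory chain (4 of 68). It was 11.1% for the proteasome (4 of 36) and 8.33% each for ribosome biogenesis and G2/M genes (2 of 24 each). Heat shock (2 of 13), glycolysis (2 of 17), NRF2 targets (2 of 14), pluripotency (2 of 19) and WNT (1 of 11) rest on 1 or 2 genes. ATP5G2, a subunit of ATP synthase, and NDUFC1 of complex I rose by 0.61 and 0.55, and NDUFA5 and NDUFS6, also of complex I, fell by 0.25 and 0.29. The proteasome subunits PSMC3, PSMD14 and PSMA2 fell by 0.33, 0.20 and 0.19, and PSMD5, an assembly chaperone, rose by 0.32. The chaperones HSP90AB1 (-0.21 ± 0.05) and HSPH1 (-0.17 ± 0.05) fell, as did the lactate dehydrogenase subunits LDHB (-0.21 ± 0.06) and LDHA (-0.18 ± 0.05), the kinetochore proteins CENPE (-0.34 ± 0.07) and CENPF (-0.20 ± 0.05), and the nucleolar proteins NCL (-0.34 ± 0.08) and NPM1 (-0.21 ± 0.05). FTL, the ferritin light chain, and TKT, a transketolase of the pentose phosphate pathway, rose by 0.33 ± 0.07 and 0.27 ± 0.06. Among pluripotency genes L1TD1, an RNA-binding protein, fell by 0.27 ± 0.05 and SFRP2, a secreted WNT modulator, rose by 0.25 ± 0.07, while POU5F1 (0.00 ± 0.05), NANOG (0.06 ± 0.07) and SOX2 (0.15 ± 0.08) were not called. Of the 29 lists with a tested member, 15 had no call.

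The steepest slopes within low numbers, among genes averaging at least 5 TPM, belonged to genes outside these lists. SAP30, a subunit of the SIN3 histone deacetylase complex, fell by 1.03 ± 0.22 (adjusted p = 0.0029). FAM50A, a nuclear protein (-0.80 ± 0.17), TCEAL2 (-0.78 ± 0.20), the zinc transporter SLC30A3 (-0.75 ± 0.23) and the ubiquitin ligase RNF187 (-0.67 ± 0.16) followed. C16orf13 and C9orf100 (0.85 ± 0.23 and 0.85 ± 0.24), F2RL1, a protease-activated receptor (0.77 ± 0.18), ZCCHC2 (0.76 ± 0.23) and SIAH2, a ubiquitin ligase (0.74 ± 0.22), rose most. With limma on log2(TPM + 1) the calls within low numbers numbered 178.

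Within high numbers several of these genes ran the other way. SAP30 rose by 0.96 ± 0.17 (adjusted p = 0.00063), RNF187 by 0.64 ± 0.15 and EIF3B by 0.33 ± 0.06 (adjusted p = 0.00022), and TXNDC5, a protein disulfide isomerase of the endoplasmic reticulum, rose by 0.60 ± 0.08 after falling by 0.66 ± 0.11 within low numbers. TMEM101 (0.73 ± 0.16), RAPGEF5 (0.72 ± 0.18) and C14orf21 (0.68 ± 0.16) completed the 5 largest rises. CLDN6, a tight-junction protein abundant in pluripotent cells, fell by 0.45 ± 0.07 (adjusted p = 0.000014). RPS28 fell by 0.51 ± 0.09, RFXANK by 0.61 ± 0.16, ZIC2, a zinc finger transcription factor, by 0.39 ± 0.08 and MID1IP1 by 0.37 ± 0.10. Of list members, DNMT3B, a de novo DNA methyltransferase, fell by 0.15 ± 0.03, FTL by 0.26 ± 0.07, EEF1A1 by 0.19 ± 0.04 and FZD7, a WNT receptor, by 0.20 ± 0.05, and CTNNB1, the WNT effector beta-catenin, rose by 0.18 ± 0.04.

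Opposite slopes recurred across the called genes. Of 21 genes called in both groups, 6.93% of the low-number and 40.4% of the high-number calls, 19 had opposite signs. The remaining genes, SRP9 and CIRBP, a cold-inducible RNA-binding protein, fell in both. Of the 302 low-number calls tested within high numbers, 234 (77.5%) had the opposite sign there. The share was 86% for the 200 fallers and lower for the risers. The median slope within high numbers was 0.13 for these fallers but only -0.03 for these risers, so the reversal lay mainly in the fallers. No share of opposite signs over all genes was set beside these. The difference of slopes, tested directly in a model chosen after these slopes were seen, was called in 431 of 9514 genes (4.53%), 3.07% with the slope higher in high numbers and 1.46% with it lower. EIF3B had the lowest p, with a difference of 0.78 ± 0.09 (edgeR adjusted p = 1.4e-11). SAP30 (2.01 ± 0.29), PALM3 (1.58 ± 0.45), RNF187 (1.32 ± 0.23), TXNDC5 (1.27 ± 0.15) and FAM50A (1.25 ± 0.24) had the largest positive differences among genes averaging at least 5 TPM. C17orf53 (-1.40 ± 0.40), ZNF574 (-1.23 ± 0.29), TMEM222 (-1.01 ± 0.27), BRE (-1 ± 0.30) and FAM108A1 (-0.96 ± 0.29) had the largest negative ones.

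The same shape appeared over 8 runs of 12 consecutive numbers. A difference among the runs was called in 364 of 9514 genes (3.83%). The last number of run 4 belongs to the high numbers. In run 1 EIF3B ranged from 555 to 671 TPM (median 601), in run 5 from 444 to 535 (median 487) and in run 7 from 555 to 690 (median 598), so every library of run 5 lay below every library of runs 1 and 7. TXNDC5 had medians of 185.7, 127.2 and 183.9 TPM in those runs, with ranges of 149.5 to 202.2, 106.8 to 161.4 and 159.7 to 215.1, so that run 5 overlapped the others only at its upper edge. SAP30 had medians of 59.6, 34.8 and 52.2 TPM, but its run 1 spread from 27.6 to 85 and overlapped the others. CLDN6 and FTL had the reverse shape: medians of 891, 1069 and 843 TPM for CLDN6 and of 805, 1001 and 853 TPM for FTL, both with overlapping runs.

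**Figure D1:**
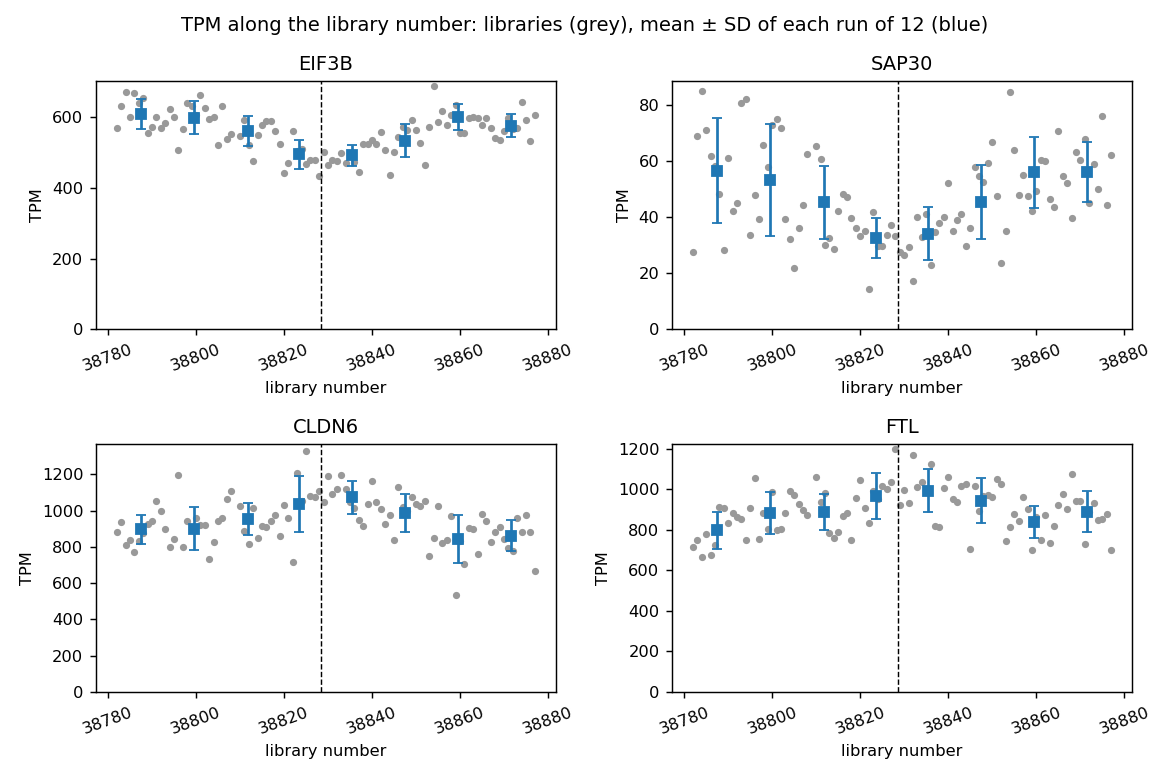
TPM of EIF3B, SAP30, CLDN6 and FTL (vertical axes, from 0) against the library number (horizontal axes); grey points are the 95 libraries, blue squares the mean ± SD of each run of 12 numbers, and the dashed line divides low from high numbers. EIF3B and SAP30 were lowest beside the dashed line, with EIF3B medians of 491 and 487 TPM in runs 4 and 5, and CLDN6 and FTL were highest there.

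The remaining genes with the lowest p over the runs were CDV3, SPATS2L, RNF187, ESF1, HNRNPH1 and PNN. ESF1, a nucleolar factor of rRNA processing, averaged 332 ± 31.5 TPM in run 1 (SD, n = 12), 275 ± 24 in run 5 and 331 ± 32.3 in run 7. PNN, a splicing-associated protein, averaged 810 ± 93.1, 689 ± 47.6 and 824 ± 89 TPM. HNRNPH1 had medians of 2325, 2100 and 2304 TPM, with ranges of 2131 to 2519, 1946 to 2317 and 2193 to 2648, which overlapped. Of the 364 called genes, 274 (75.3%) had a lower mean in runs 3 to 6 than in runs 1, 2, 7 and 8, against 47.4% of all tested genes. Run 7 was the highest of the 8 for 47.5% of called genes, against 15.4% of all genes, and run 5 the lowest for 120 (33%, against 11.9%). Run 8 was the highest for 9 and the lowest for 8.

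Many, but not all, of the genes that fell and rose together were alike in base composition. Sequences of 9342 of the 9514 tested genes (98.2%) were matched by RefSeq accession to GENCODE 29 transcripts. The longest matched coding transcript stood for each gene, and the median purine share was 50.8%. EIF3B (54%, the 88.8 percentile of tested genes), SAP30 (54.6%, 91.9), PNN (57.3%, 98.2), ESF1 (61.3%, 99.8), L1TD1 (60.4%, 99.7) and TCEAL2 (63.3%, 100) were purine-rich. CLDN6 (44.4%, 0.6), FTL (46.1%, 2.5) and RPS28 (48%, 10.8) were purine-poor. RNF187 (48.8%, 17.9), SPATS2L (49.6%, 29.6) and TXNDC5 (50.4%, 42.8) had the slopes of the first set without its composition, and RPL12 (52.9%, 80.1) rose within low numbers. Among the largest changes within high numbers, the risers TMEM101, C14orf21 and RAPGEF5 held 49.2%, 50.8% and 51.2% purines. Of the fallers there, RFXANK held 52.2%, ZIC2 48.1% and MID1IP1 49.4%. To show what the shares look like, the most purine-rich 60 bases of the coding sequence are printed for genes of each kind, 5′ to 3′, in the DNA letters of the GENCODE 29 transcripts (GRCh38), with unbroken stretches of at least 6 purines in capitals. Any transcript has a richest stretch, and the median gene reached 73.3% purines in it.
PNN: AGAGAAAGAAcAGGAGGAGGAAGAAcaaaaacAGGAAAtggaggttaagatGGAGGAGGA
ESF1: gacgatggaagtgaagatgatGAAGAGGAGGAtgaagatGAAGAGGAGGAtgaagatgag
SAP30: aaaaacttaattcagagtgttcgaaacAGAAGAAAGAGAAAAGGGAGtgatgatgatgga
EIF3B: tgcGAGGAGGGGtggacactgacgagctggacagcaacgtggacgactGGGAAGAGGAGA
TXNDC5: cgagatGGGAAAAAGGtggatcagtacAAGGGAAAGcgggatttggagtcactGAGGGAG
CLDN6: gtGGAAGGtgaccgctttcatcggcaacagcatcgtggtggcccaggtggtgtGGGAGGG
RPS28: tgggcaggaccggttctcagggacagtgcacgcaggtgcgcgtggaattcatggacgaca
The windows of PNN and ESF1 held 88.3% and 85% purines, those of SAP30 and TXNDC5 75% each, EIF3B 73.3%, and those of CLDN6 and RPS28 60% each. The stretch of RPS28 holds no run of 6 purines.

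Across genes, purine share went with the slopes more closely than GC content did. Over 3278 genes with a mean log2 CPM of at least 6, Spearman's rho between purine share and slope was -0.53 within low numbers, 0.39 within high numbers and 0.56 for the difference of slopes. For the high-minus-low difference it was -0.06. GC content gave 0.08, -0.04 and -0.08 with the 3 slopes, and A alone -0.24, 0.19 and 0.27. C alone gave 0.22, -0.11 and -0.21, and transcript length 0.14, 0.11 and -0.03. These are correlations across genes measured in the same libraries, so the genes are not independent. The slopes of the groups correlated across these genes with rho = -0.37. With genes divided into 5 equal bins by purine share, 0.175% of the 1711 in the richest bin rose and 8.07% fell within low numbers, and of the 1712 in the poorest bin 3.1% rose and 0.292% fell. Within high numbers the richest bin (1689 genes) held 12 risers and 1 faller, and the poorest (1689) 3 and 8. Because the association was seen in these data before it was counted, the counts carry no test.

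**Figure D2:**
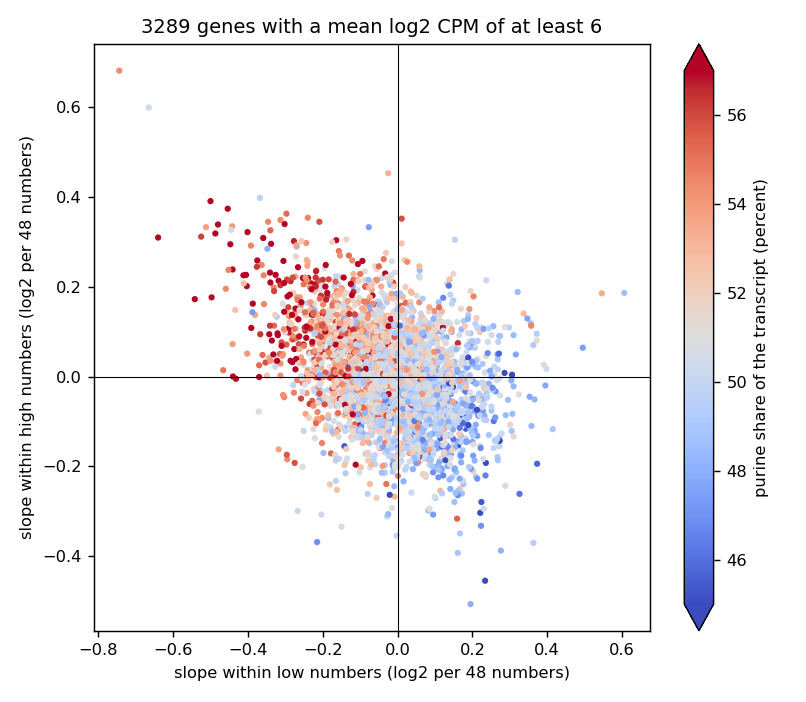
Slope within low numbers (horizontal axis) against slope within high numbers (vertical axis), both in log2 per 48 numbers, for genes with a mean log2 CPM of at least 6; each point is a gene, coloured by the purine share of its transcript. Purine-rich genes (red) lie mostly to the upper left and purine-poor genes (blue) to the lower right, and the slopes correlate with rho = -0.37 across 3278 of these genes.

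The composition signal can be read per library. A purine contrast was computed as the mean log2 CPM of the 656 purine-richest minus that of the 656 purine-poorest of those genes, centred over the 95 libraries. It averaged 0.069 and 0.055 in runs 1 and 2, -0.064, -0.052, -0.066 and -0.046 in runs 3 to 6, 0.106 in run 7 and -0.008 in run 8. Within a run the SD was 0.064 to 0.145, so single libraries overlapped between runs. The groups averaged 0.003 ± 0.122 (SD, low, n = 46) and -0.003 ± 0.117 (high, n = 49). Lane1_38859 of run 7 stood highest at 0.469 and raised the mean of its run. The median was 0.088 in run 7 and 0.052 in run 1. Totals correlated with the contrast at r = -0.13 within low and -0.15 within high numbers, and with the number at 0.16 and 0.14, all given as descriptions. With the contrast as a covariate, chosen after seeing the data and computed from the same counts, the calls were 42 within low numbers, 33 within high numbers, 47 among runs and 61 for the difference of slopes. Of the 42, 18 were among the 303. Among runs, ESF1 (edgeR adjusted p = 0.22), HNRNPH1 (0.35) and PNN (0.8) were not called with the covariate. EIF3B, TXNDC5, CDV3, SPATS2L and RNF187 were. Within low numbers FAM50A had a slope of -0.20 (edgeR adjusted p = 0.62), TCEAL2 of -0.10 (0.89) and RNF187 of -0.38 (0.31) in that fit, and of the 10 steepest genes there only SAP30 was called (-0.92, adjusted p = 0.037). Within high numbers MID1IP1 had -0.22 (0.43), while SAP30, TMEM101, RPS28, CLDN6 and ZIC2 were called. The difference of slopes was 0.38 (0.81) for PALM3, 0.41 (0.39) for FAM50A and -0.56 (0.54) for BRE, and SAP30, RNF187, TXNDC5 and ZNF574 were called. What gave the libraries different contrasts was not tested.

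**Figure D3:**
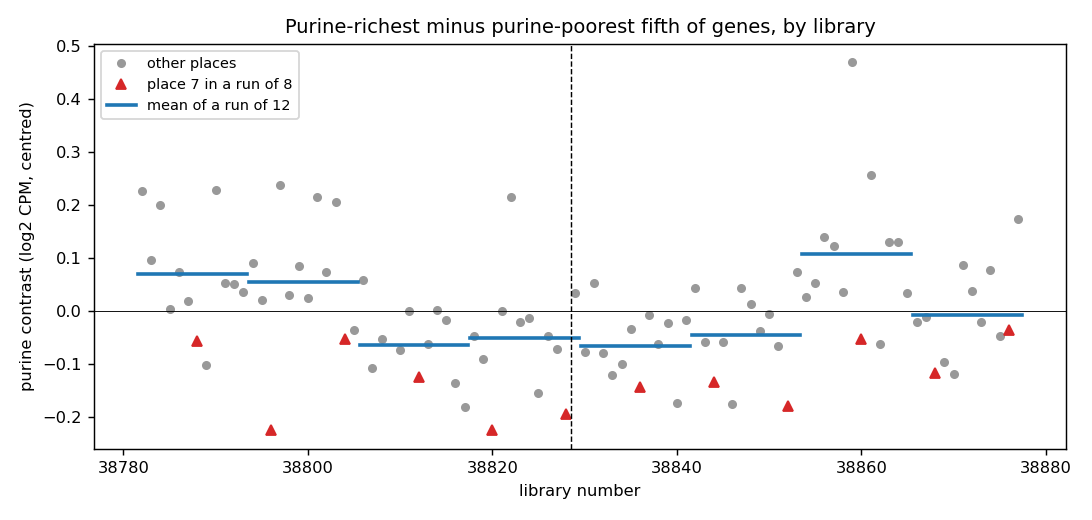
Purine contrast of each of the 95 libraries (vertical axis, log2 CPM, centred) against the library number (horizontal axis); blue bars are means of runs of 12 numbers, red triangles mark place 7 in runs of 8, and the dashed line divides low from high numbers. The run means pass from 0.069 to -0.066 in run 5 and to 0.106 in run 7 (median 0.088), and each red triangle lies below 0.

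The contrast was the same when a number was sequenced again. Lanes 2, 3 and 4 hold 48, 24 and 6 of the high numbers at greater depth, and the contrast there correlated with that of the same numbers in Lane 1 at r = 0.997 in each lane, with a mean absolute difference of 0.006 to 0.008. Whether a number is the same library in each lane is not given in the labels. If it is, slopes in Lane 2 come from the same libraries and are not independent of those in Lane 1. All 52 genes called within high numbers in Lane 1 had the same sign in Lane 2, where 32 of 10000 genes (0.32%) were called, 19 of them among the 52. SAP30 (0.93 ± 0.16), RNF187 (0.61 ± 0.13), RPS28 (-0.49 ± 0.10) and CLDN6 (-0.41 ± 0.07) were called there. The other slopes among the 5 largest in each direction were smaller in Lane 2 and not called: TMEM101 0.36 ± 0.15, RAPGEF5 0.13 ± 0.15, C14orf21 0.04 ± 0.14, RFXANK -0.18 ± 0.13, ZIC2 -0.23 ± 0.07 and MID1IP1 -0.13 ± 0.09. Lane 3 holds only numbers from the second part of the high range. There 1 of 10945 genes (0.00914%) was called and 17 of the 52 had the same sign, with 0 called in Lane 1 over the same numbers.

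A second pattern recurred every 8 numbers. Counting places 1 to 8 from the first number, 54 of 9514 genes (0.568%) differed among places, and place 7 stood apart: 38 of the 54 were lowest there and 12 highest, against 19.7% and 21.8% of all genes. Place 1 was the highest for 25 of the 54, against 14.4% of all genes. Lane1_38790, Lane1_38822 and Lane1_38846, named below for their low mean correlation with the other libraries, are all at place 1. The purine contrast at place 1 averaged 0.126 in low and -0.079 in high numbers (n = 6 each). Whether these libraries carry the place 1 count was not tested. The places carry 11 or 12 libraries each, spread over both groups. Place 7 was singled out after the values were seen, so the values at place 7 are a description.

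FADS2, a fatty acid desaturase, ranged at place 7 from 176.2 to 233.3 TPM (median 207.4, n = 12) and elsewhere from 106.5 to 198.4 (median 161.9, n = 83; edgeR adjusted p = 0.000039 over the 8 places). The ranges overlapped: the highest of the other libraries, at 198.4 TPM, lay above place 7 libraries at 176.2, 186.9, 191.8 and 193.2 TPM. IL34, a cytokine, had medians of 334 and 262 TPM (adjusted p = 0.000051), GNB2L1, the ribosomal scaffold RACK1, 1201 and 908 TPM (adjusted p = 0.00029), and DNAL1, a dynein light chain, 45 and 33 TPM (adjusted p = 0.0030). In these genes the ranges overlapped more, with GNB2L1 at 880 to 1313 TPM at place 7 and 643 to 1227 elsewhere. Means at place 7 lay on the same side in both groups, although fewer genes were called in either group alone. The genes were chosen on both groups together, so this likeness follows in part from the choice. Of the 6 genes called within low numbers alone, 3 were among the calls over both groups. Within high numbers alone it was 4 of 7. GNB2L1 averaged 1151 TPM at place 7 and 919 elsewhere in low numbers, and 1164 and 932 in high numbers. Within low numbers none of the 8 genes of lowest p over the places was called (edgeR adjusted p of 0.05 to 0.33). Within high numbers FADS2, IL34, GNB2L1 and DNAL1 were called (each adjusted p = 0.033) and HMGB2 (0.12), DCAF13 (0.27), PSPC1 (0.33) and CACYBP (0.33) were not. In Lane 2 only FADS2 of the 8 was called (0.027).

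Other genes were lower at place 7. HMGB2, a chromatin protein of dividing cells, ranged from 1177 to 1409 TPM at place 7 (median 1248) and from 1205 to 1821 elsewhere (median 1447; adjusted p = 0.00049). PSPC1, a paraspeckle protein, had medians of 284 and 325 TPM, DCAF13, a factor of rRNA processing, 194 and 217, and CACYBP, a calcyclin-binding protein, 299 and 328. Against 0.568% of all genes, 3 of 24 ribosome biogenesis genes were called (12.5%), NPM1 (13970 against 15060 TPM, adjusted p = 0.0042), NOP14, a pre-rRNA processing factor (94.7 against 115.9) and UBTF, the transcription factor of rRNA genes. HNRNPD (1580 against 1737 TPM) and U2AF1 (658 against 724) were the 2 called of 41 splicing factors (4.88%), and EEF1B2, an elongation factor subunit (1827 against 2150), was the 1 called of 60 translation factors (1.67%). Counts this small describe those genes rather than their lists. RPL12 stood higher at place 7, at 3593 against 3052 TPM.

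**Figure D4:**
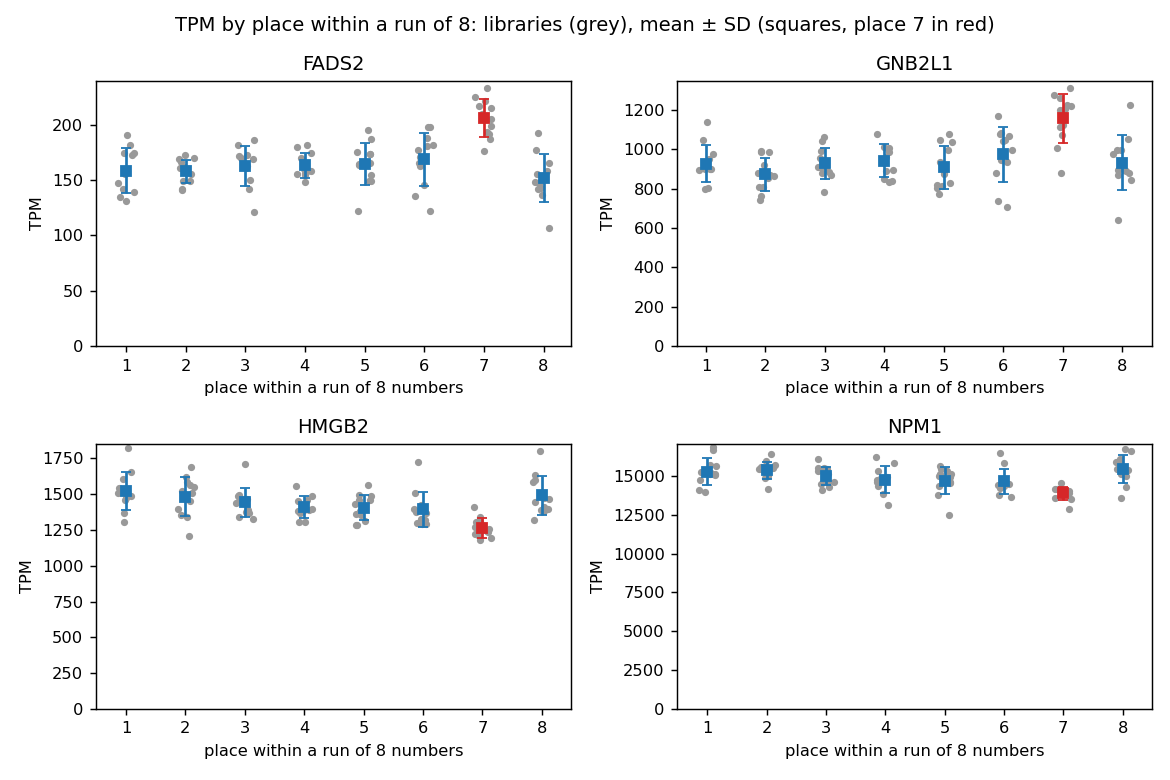
TPM of FADS2, GNB2L1, HMGB2 and NPM1 (vertical axes, from 0) by place within a run of 8 numbers (horizontal axes); grey points are libraries, squares the mean ± SD of 11 or 12 libraries, with place 7 in red. Place 7 has the highest mean of the 8 for FADS2 and GNB2L1 (206 and 1158 TPM) and the lowest for HMGB2 and NPM1 (1264 and 13890 TPM).

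Base composition went with this pattern too. The purine contrast was -0.129 ± 0.068 at place 7 (SD, n = 12, from -0.226 to -0.036) and 0.019 ± 0.113 at the other places (n = 83, from -0.182 to 0.469). It was -0.148 ± 0.080 at place 7 in low numbers and -0.111 ± 0.055 in high numbers (n = 6 each). In Lane 2 it was -0.107 ± 0.054 (n = 6) against 0.015 ± 0.111 (n = 42). Across the 3278 genes the difference of place 7 from the rest correlated with purine share at rho = -0.56 and with G at -0.28. With U (T in the transcript file) rho was 0.26, and with transcript length 0.20. The place 7 differences of the groups correlated with each other at rho = 0.63. FADS2, however, has a median purine share (50.7%, the 48.1 percentile), and 45 genes were called with the contrast as a covariate, 22 of them among the 54. With that covariate FADS2 (edgeR adjusted p = 0.022), IL34 (0.0046), GNB2L1 (0.03) and HMGB2 (0.0046) were called. DCAF13 (0.071), PSPC1 (0.082), CACYBP (0.071) and DNAL1 (0.22) were not. With place counted in the order of the libraries, so that the absent number shifts every later place by 1, 0 genes were called by edgeR (837 at an unadjusted p below 0.05). Within low numbers alone 6 genes were called, within high numbers alone 7, and 1 in Lane 2. Place within runs of 12 called 0 of 9514 genes (0%) with edgeR, with 400 at an unadjusted p below 0.05, and no other tool was run on it. Place 7 totals (1294848 ± 87900) overlapped those of every other place, whose means were 1243967 to 1282927.

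Libraries close in number, and those at place 7, had the highest mean correlations. The deviations of 5517 genes (mean log2 CPM of at least 5) from their means over the 95 libraries correlated between libraries 1 and 2 numbers apart at 0.031 and 0.028 on average (93 and 92 pairs). The mean was 0.003 at a distance of 4, 0.033 at 8 (86 pairs), -0.018 at 12, 0.011 at 16, 0.014 at 24, 0.010 at 32, -0.002 at 40 and -0.020 at 48. All pairs at the same place in different runs averaged 0.010 (517 pairs). Pairs of libraries both at place 7 averaged 0.125 (66 pairs), and same-place pairs at the other places -0.007 (451 pairs), against -0.018 for pairs at different places at least 8 numbers apart. Pairs within a group averaged -0.009 and pairs across groups -0.011. Pairs share libraries, and the values are descriptions.

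**Figure D5:**
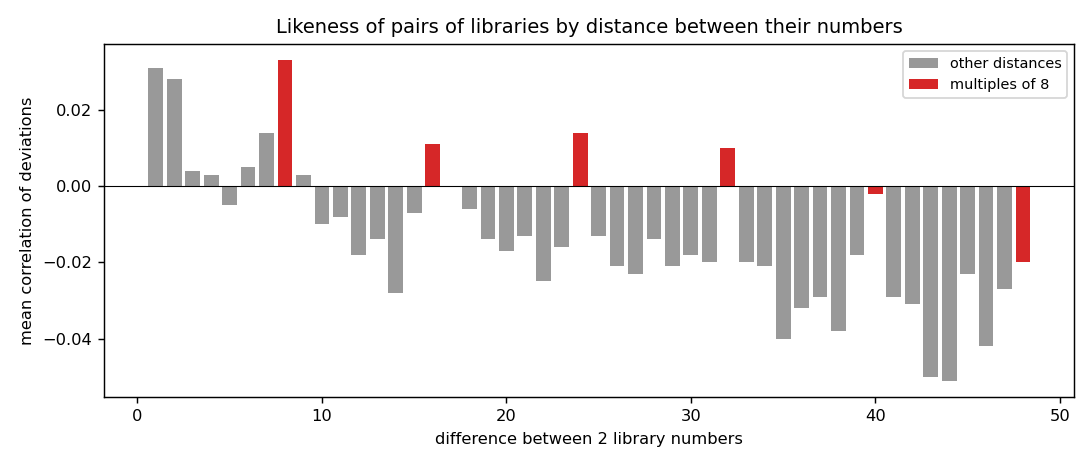
Mean correlation of the deviations of 5517 genes between pairs of Lane 1 libraries (vertical axis) by the difference between their numbers (horizontal axis, 1 to 48); red bars are multiples of 8. The mean was 0.031 at a distance of 1 and 0.033 at 8, and bars at 16, 24 and 32 stand above those around them.

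The mean correlation of 4 libraries with the other libraries was below 0.97: Lane1_38790 and Lane1_38822 in low numbers and Lane1_38846 and Lane1_38859 in high numbers. Without them the calls were 0 between groups, 414 and 76 within low and high numbers, 301 among runs and 80 by place in 8. Every pair of libraries within a group differed by more than counting noise, with a chi-square of at least 1.35 times its degrees of freedom, and none was treated as a duplicate.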

How the data were processed

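The submitters' processing notes name RSEM 1.2.3, Bowtie 0.12.8, CASAVA 1.8.2 and hg19. For 19084 genes the authors deposited expected counts and TPM values. No further steps are given in the sources used here. Expected counts were rounded and tested with edgeR 4.0.16 (quasi-likelihood test, filterByExpr, TMM, Benjamini-Hochberg adjustment over all genes tested, threshold 0.05) in R 4.3.3. DESeq2 1.42.0, limma 3.58.1 on log2(TPM + 1), thinned counts and covariates served as alternatives. Slopes are per 48 numbers within a group and per 95 numbers over both; SEs derive from the F statistic. Log2 CPM used a prior count of 2. Library values were compared by permutation in scipy. The procedure was tested on simulated counts. Named genes were the 5 largest called changes in each direction with at least 5 TPM (read-through models and near-identical copies aside), the 8 lowest adjusted p for tests over several groups, the 5 lowest p where fewer than 5 genes were called, up to 3 called members (others as examples) of 32 gene lists (3 without tested members), and POU5F1, NANOG and SOX2. The division by number, the lists and the tests were chosen with earlier results of these data known. Genes used to compare purine share, and place 7, were chosen after their values were seen. No coordinates are given, because the transcripts come from another build than the counts. Precision is set by the totals of 1040667 to 1539268 counts per library.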

Additional observations from a re-analysis of the deposited data

Results flagged for a closer look

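Slopes along the number differed between low and high numbers (edgeR test of the difference, adjusted p below 0.05) in 17 of the genes named for their slopes. Most of these were named because this same test called them, and the rest for steep slopes within a group. The count of 17 is therefore a list and not a result. Over all genes the test called 431 of 9514 (4.53%). The slope in high minus that in low numbers, in log2 per 48 numbers, was positive in SAP30 (2.01), PALM3 (1.58), RNF187 (1.32), TXNDC5 (1.27), FAM50A (1.25), TCEAL2 (1.04) and TMEM101 (0.81). It was negative in C17orf53 (-1.40), ZNF574 (-1.23), TMEM222 (-1.01), BRE (-1), FAM108A1 (-0.96), F2RL1 (-0.89), MID1IP1 (-0.73), RPS28 (-0.69), CLDN6 (-0.68) and ZIC2 (-0.66). PALM3 and C17orf53 passed the filter on low counts only over both groups together, so they have no slope within a group.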

How the results depend on the processing

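The comparison of groups called 0 genes under all 12 alternatives, and the step called 1 gene under each of 3. The trend along all numbers called 0 genes with edgeR but 10 with DESeq2, 4 with the total as covariate, 3 without the filter and 6 with the purine contrast. Within low numbers the 303 calls became 178 and 177 with limma on log2(TPM + 1) and log2(TPM + 0.1), and 42 with the purine contrast. Within high numbers the 52 became 88 with DESeq2, 29 and 30 with limma, 33 with the purine contrast, 32 in Lane 2 and 1 in Lane 3. The 364 differences among runs became 47 with the purine contrast and 217 over 12 runs of 8, and the 431 differences of slopes 61 with the purine contrast. The 54 by place in 8 became 214 with runs of 8 as a covariate, 0 by library order, 6 in low numbers, 7 in high numbers and 1 in Lane 2. Genes detected, 67 fewer in high numbers, were 9 more after thinning. The cause of these changes was not tested. Subsets and Lanes 2 and 3 hold fewer libraries. Lane 3 covers only the last part of the high numbers, so its slopes span other numbers, and Lane 1 called 0 genes over them too. In Lane 3, over 24 of the numbers, the signs of SAP30 (-0.87), TMEM101 (-0.43), C14orf21 (-0.22), RNF187 (-0.67), RPS28 (0.31), CLDN6 (0.20), ZIC2 (0.18) and MID1IP1 (0.48) were reversed, none called. Alternatives with the purine contrast, library order, runs of 8, places within 1 group or Lane 2 or omitted libraries, and the test of slopes itself, were chosen after seeing the data. No paired analysis was possible because the groups share no library number. Scarce genes are the least precise at this depth.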
